A study of Mus musculus with 8 samples.

Results

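The 10 genes described here make long noncoding RNAs of 3 kinds, and all 10 were found by gene symbol among the 54532 gene rows of the deposited count table. They comprise 2 nuclear architectural RNAs (Malat1 and Neat1), 6 hosts of small nucleolar RNAs (Gas5, Snhg1, Snhg5, Snhg6, Snhg8 and Snhg12) and 2 hosts of microRNAs (Mir155hg and Mir142hg). Members were matched by gene name, without a threshold on any measured value. RNA was sequenced from bone marrow LSK cells, the fraction sorted as lacking lineage markers and carrying Sca-1 and c-Kit, which holds blood stem cells and multipotent progenitors. AML1/ETO is the fusion protein made by the t(8;21) translocation of acute myeloid leukemia, called RUNX1-RUNX1T1 by its gene names. The 3 AML1/ETO libraries came from C57BL/6 mice of genotype Runx1-Runx1t1, and the 5 control libraries from wild-type C57BL/6 mice. Mice of both groups received poly[I:C], a double-stranded RNA mimic that induces interferon, as 4 injections of 5 mg/kg on alternate days, and cells were sorted 4 weeks later. The labels name no Cre driver or age, and do not state whether each library came from a separate animal, so p-values measure only the spread between these libraries.

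Malat1 RNA sits in nuclear speckles, the bodies in which splicing factors collect. Neat1 RNA is the scaffold of the paraspeckle, a nuclear body built from its long isoform and RNA-binding proteins. A snoRNA host gene is transcribed and spliced, and its introns are trimmed to small nucleolar RNAs that guide chemical modification of ribosomal RNA, while the spliced exons of many hosts are degraded by nonsense-mediated decay. A microRNA host is the primary transcript from which Drosha and Dicer cut a microRNA. In blood, miR-142 is abundant across white cell lineages and miR-155 is induced when lymphoid and myeloid cells are activated.

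The mature microRNAs are shown because they are the products for which the Mir155hg and Mir142hg transcripts are known. They are given 5′ to 3′ from RefSeq (GRCm38.p6), with the seed, bases 2 to 8, in capitals.
mmu-miR-155-5p: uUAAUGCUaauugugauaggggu
mmu-miR-155-3p: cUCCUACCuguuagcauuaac
mmu-miR-142a-5p: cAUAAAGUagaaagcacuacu
mmu-miR-142a-3p: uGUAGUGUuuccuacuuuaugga
mmu-miR-142b: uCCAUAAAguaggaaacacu
The 5 mature RNAs have 5 different seeds. The miR-155-5p arm lies at chr16:84714143-84714165 on the plus strand and the miR-142a-5p arm at chr11:87756867-87756887 on the plus strand. The miR-142b arm lies on the opposite strand, at chr11:87756906-87756925, and its reverse complement is contained in the miR-142a hairpin.

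Many snoRNA hosts begin with a 5′ terminal oligopyrimidine tract, the run of C and T at the transcript start that is also found on ribosomal protein mRNAs. The start sites of the snoRNA hosts are therefore shown, 25 bases before the start followed by the first 25 bases of the transcript. A script marked in capitals, on the transcribed strand, any C within 5 bases of the start that was followed by at least 4 bases of C or T.
Gas5 start 1: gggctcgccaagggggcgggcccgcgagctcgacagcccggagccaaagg
Gas5 start 2: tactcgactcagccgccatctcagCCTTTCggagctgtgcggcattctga
Snhg1: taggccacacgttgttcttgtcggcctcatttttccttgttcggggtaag
Snhg5: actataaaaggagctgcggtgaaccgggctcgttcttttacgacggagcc
Snhg8: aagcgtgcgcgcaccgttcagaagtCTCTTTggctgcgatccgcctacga
Snhg12: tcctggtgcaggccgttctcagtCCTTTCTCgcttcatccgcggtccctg
These sequences are from RefSeq (GRCm38.p6) and lie, in the order shown, at chr1:161034576-161034625, chr1:161035141-161035190, chr19:8723462-8723511, chr9:88522873-88522922, chr3:123508312-123508361 and chr4:132308653-132308702. Snhg5 and Snhg8 are on the minus strand and the others on the plus strand. Of the 10 genes, 7 had an entry, and the tract was found at 3 of the 6 starts of snoRNA hosts and at neither of the other 2 entries, Malat1 and Mir155hg. By the same search, 17.1% of 32851 annotated starts held a tract, as did 8 of 23 starts (34.8%) of protein-coding snoRNA hosts and translation-machinery genes. The 3 hosts with a tract were Gas5, Snhg8 and Snhg12, whose differences between the groups are given below. A match is a description of these letters only.

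A box C/D and an H/ACA snoRNA, the main classes, are shown for the host genes whose levels separated the groups. They are from GENCODE M21 (GRCm38). Snord47 of Gas5 (chr1:161038082-161038158, plus strand) has the core letters of boxes C and D in capitals, and Snora24 of Snhg8 (chr3:123507937-123508066, minus strand) has the ACA box in capitals.
Snord47: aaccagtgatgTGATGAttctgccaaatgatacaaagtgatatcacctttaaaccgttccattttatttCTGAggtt
Snora24: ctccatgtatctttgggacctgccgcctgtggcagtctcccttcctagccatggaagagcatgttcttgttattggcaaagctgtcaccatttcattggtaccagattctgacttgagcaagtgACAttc

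The libraries held 14693080 to 17527043 counted reads, and 15009 genes had enough reads to be tested, all 10 among them. Reads of Runx1t1, the ETO gene of the fusion, numbered 712 to 1971 in AML1/ETO libraries and 27 to 132 in controls. Xist had 28559 to 33151 reads in AML1/ETO libraries and at most 111 in controls, while the Y-linked Ddx3y had 0 and 3688 to 5038, so the groups also differed in the sex of the mice, which cannot be told apart from genotype. None of the 10 genes lies on X or Y. Of 10 LSK markers, 7 were higher and 1 was lower in AML1/ETO cells, against 11.6% and 14.2% of all tested genes. The lower gene was Mecom (log2 difference -2.41, edgeR adjusted p = 0.00021). Summed levels of 8 mast cell and basophil markers were 2473 to 6779 TMM-scaled CPM, reads normalised to library size in AML1/ETO libraries and 27.1 to 72.5 in controls, with Cpa3 the highest. Of the 6 tested, 5 were higher and 1 was lower, the basophil protease Prss34 (0 against 5.47 CPM, edgeR adjusted p = 0.00222). B cell markers summed to 0 to 4.81 CPM in AML1/ETO libraries against 73.2 to 206.1 in controls, with Cd79a, Ebf1, Pax5 and Ighm at 0 reads in the AML1/ETO group. The 6 T and NK cell markers summed to 5.22 to 7.59 CPM against 60.9 to 115.4 CPM, nearly all of it from Nkg7 (mean 5.16 against 77.7 CPM). Cd3e, Cd3g, Cd8a and Ncr1 had 0 reads in every library, and Cd4 was at 0.984 against 0.623 CPM. The summed neutrophil markers were 0.0654 to 61.4 CPM against 117.9 to 282.8, and macrophage markers 37.0 to 56.7 CPM against 131.1 to 224 CPM. Erythroid markers summed to 9.54 to 61.5 CPM against 0 to 21.8 CPM. Megakaryocyte markers summed to 195.4 to 649.9 CPM against 206.7 to 354.4 CPM, with Itga2b called higher and Vwf lower. Stromal and endothelial markers summed to 349.3 to 457.7 CPM against 153.3 to 200.3 CPM, with Pecam1 and Pdgfrb called higher and Kdr lower. Genes expected at 20 to 50 reads were at 0 reads in 42.2% to 50.7% of cases in AML1/ETO libraries, in 46% in control 1 and in 11% to 26.7% in the other controls. The part of cell makeup, sex and library complexity in the results below was not tested.

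In AML1/ETO LSK cells 3 of the 10 RNAs, Neat1, Gas5 and Mir142hg, were higher at an adjusted p under 0.05 (edgeR quasi-likelihood test, Benjamini-Hochberg over all tested genes), and none was lower. Neat1, the paraspeckle scaffold, was 7.17-fold higher. The log2 differences were 2.84 for Neat1, 1.18 for Mir142hg and 0.76 for Gas5. Over all tested genes, 11.6% were called higher and 14.2% lower. Of the 10 RNAs, 4 had every AML1/ETO library above every control (Neat1, Gas5, Snhg8 and Mir142hg) and none had every AML1/ETO library below, against 14.1% and 17.5% of all tested genes. No member had a lower level at an unadjusted p under 0.05, and 0 were called lower by DESeq2 or limma-voom. The median log2 difference was 0.28 over the 10 RNAs and -0.09 over all tested genes, and 7 of the 10 values were positive. The 3 functional groups each contained 1 RNA that was called higher, out of 2 nuclear RNAs, 6 snoRNA hosts and 2 microRNA hosts. In bulk RNA of this kind, fewer cells of a type and less RNA per cell cannot be told apart.

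**Figure D1:**
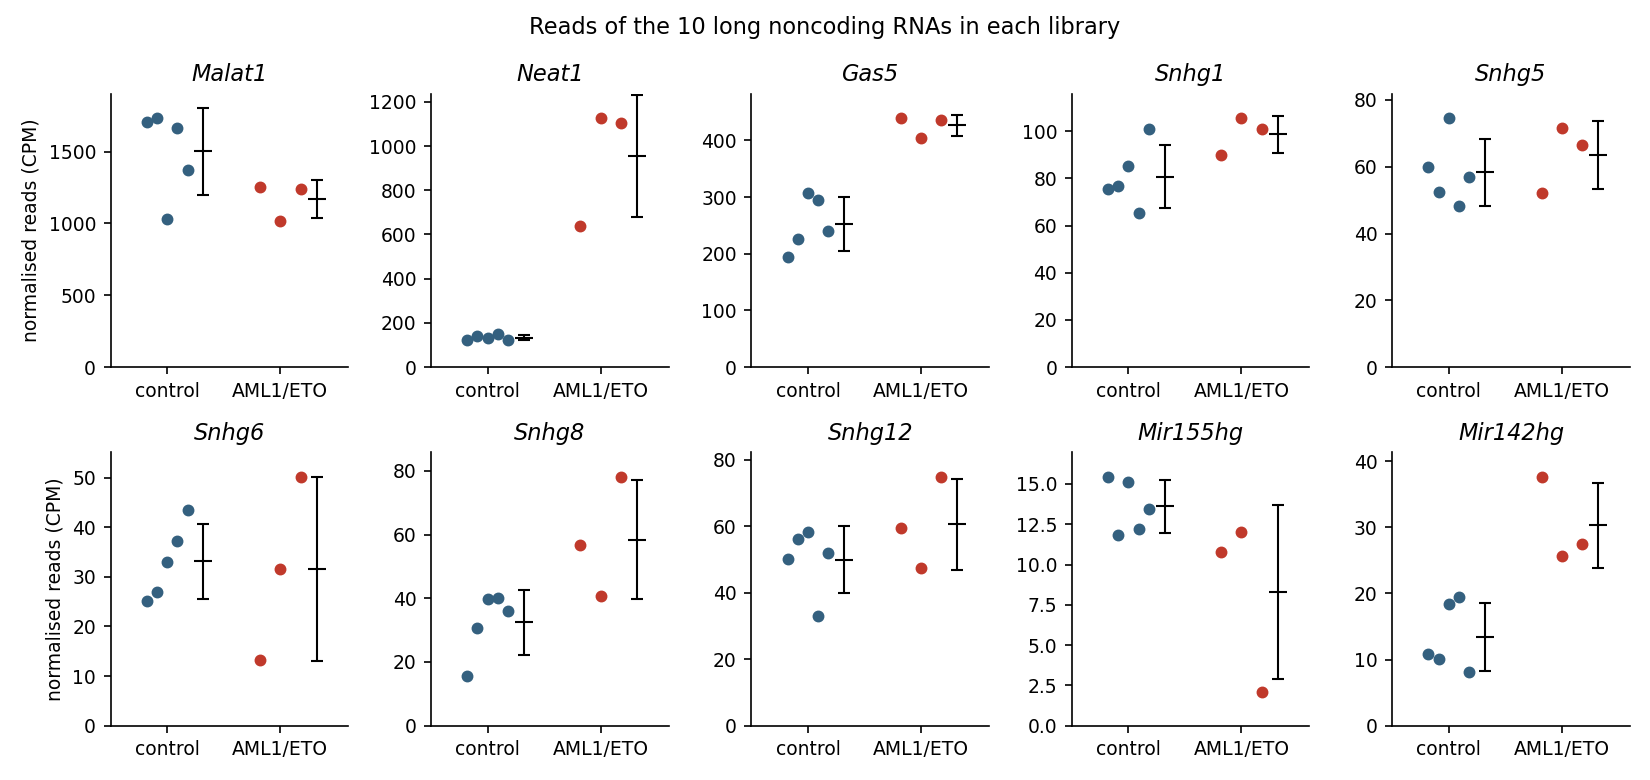
Level of each of the 10 long noncoding RNAs in CPM (vertical axes, each from 0) in every library, with 3 AML1/ETO and 5 control libraries. Points are libraries, and the bars beside them are the group mean ± SD. The groups do not overlap for Neat1, Gas5, Snhg8 and Mir142hg, and overlap for the other 6 RNAs.

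Neat1 lies at chr19:5824708-5845478 on the minus strand (GRCm38), and GENCODE M21 lists 4 transcripts for it, the longest of 20771 bp and the next of 3004 bp, which share the row. Its level was 637.7, 1125 and 1106 CPM in AML1/ETO libraries 1, 2 and 3. In controls 1 to 5 it was 123.1, 140.2, 130.5, 149.2 and 123.5 CPM. The lowest AML1/ETO library was thus well above the highest control, and AML1/ETO library 1 stood below the other AML1/ETO libraries. The means were 956.1 ± 275.9 CPM (SD, n = 3) and 133.3 ± 11.3 CPM (SD, n = 5), a log2 difference of 2.84 (SE 0.19, 95% interval 2.44 to 3.25, edgeR adjusted p = 1.33e-06). Ranked by p, Neat1 was number 48 of all tested genes. The spread among AML1/ETO libraries, a coefficient of variation of 28.9%, exceeded the 8.47% among controls. The row does not tell the isoforms apart. The labels give the library type as mRNA, and the long Neat1 isoform is known to lack a poly(A) tail.

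Malat1 (chr19:5795690-5802672, minus strand) is the other nuclear RNA and lies 22035 bp from Neat1 on the same strand. Its level was 1254, 1016 and 1240 CPM in AML1/ETO libraries 1 to 3. In controls 1 to 5 it was 1705, 1731, 1028, 1665 and 1374 CPM. Control 3 lay among the AML1/ETO libraries and the other 4 controls above them, so the groups overlapped. The means were 1170 ± 133.6 CPM (SD, n = 3) and 1500 ± 300.6 CPM (SD, n = 5). The log2 difference was -0.36 (SE 0.18, 95% interval -0.75 to 0.03), which did not pass the test (edgeR adjusted p = 0.168). Scaled by library totals alone, it was -0.51 and passed (edgeR adjusted p = 0.0481). Malat1 took 0.0989% to 0.116% of the reads of an AML1/ETO library and 0.107% to 0.178% of a control.

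The ratio of Neat1 to Malat1 reads within a library does not depend on scaling. It was 0.509, 1.11 and 0.892 in AML1/ETO libraries 1 to 3, and 0.0722, 0.0810, 0.127, 0.0896 and 0.0899 in controls 1 to 5. The ratio was higher in each AML1/ETO library than in any control, and AML1/ETO library 1 had the lowest ratio of its group. The mean log2 ratio was -0.33 ± 0.58 (SD, n = 3) against -3.47 ± 0.30 (SD, n = 5), an 8.81-fold difference. The exact two-sided permutation test gave p = 0.0179, the smallest that the 56 arrangements of the libraries can give. Neat1 alone already separated the groups, at 637.7 CPM or more against 149.2 CPM or less. Malat1 ranged only from 1016 to 1731 CPM over all libraries. The separation of the ratio, and with it this p, therefore followed from the Neat1 levels and is no separate support. The deviations of Neat1 and Malat1 from their group means had a Pearson correlation of -0.09 over the 8 libraries, a description with no test.

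**Figure D2:**
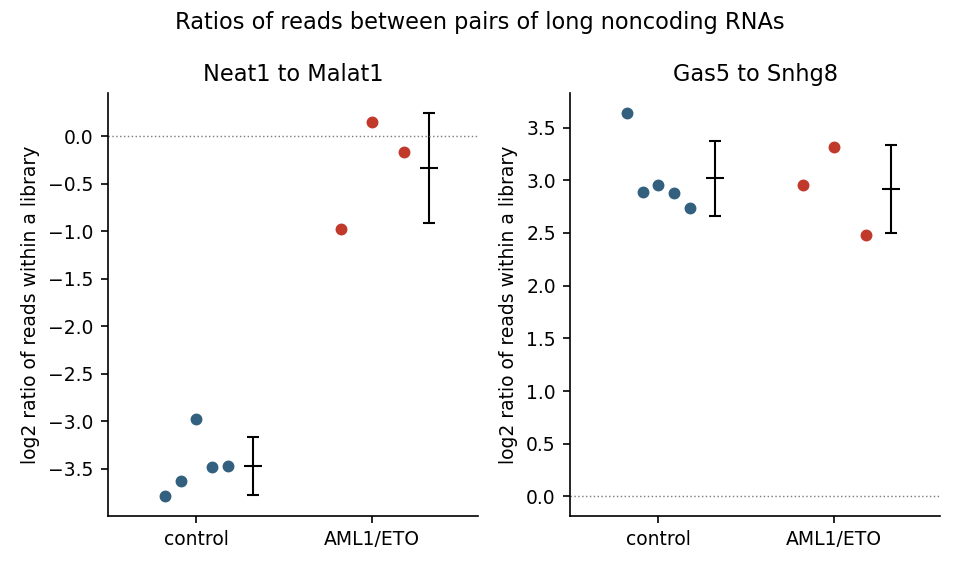
Log2 ratio of Neat1 to Malat1 reads (left) and of Gas5 to Snhg8 reads (right) in each of 3 AML1/ETO and 5 control libraries (points), with the group mean ± SD beside them. The Neat1 to Malat1 means are -0.33 in AML1/ETO and -3.47 in control libraries with no overlap, while the Gas5 to Snhg8 ratios overlap.

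Gas5 was the snoRNA host that rose. It lies at chr1:161034422-161038539 on the plus strand and carries 10 annotated small RNA rows, with Snord80 entered under separate, overlapping IDs. Gas5 is known for accumulating when growth stops and translation slows. Its level was 439, 404.9 and 436.5 CPM in AML1/ETO libraries 1 to 3 and 194.1, 226.7, 307.3, 294.8 and 240.6 CPM in controls 1 to 5. Every AML1/ETO library exceeded every control, and the AML1/ETO libraries lay close together, with a coefficient of variation of 4.45% against 18.8% among controls. The means were 426.8 ± 18.99 CPM (SD, n = 3) and 252.7 ± 47.5 CPM (SD, n = 5), a log2 difference of 0.76 (SE 0.17, 95% interval 0.39 to 1.12, edgeR adjusted p = 0.00593).

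Snhg8 (chr3:123507552-123508404, minus strand), the host of Snora24, was at 56.6, 40.6 and 78.1 CPM in AML1/ETO libraries 1 to 3. In controls 1 to 5 it was at 15.6, 30.6, 39.7, 40.0 and 36.1 CPM. The groups did not overlap, but AML1/ETO library 2 and control 4 lay within 1 CPM of each other, and control 1 was the lowest of all. The log2 difference was 0.85 (SE 0.32, 95% interval 0.16 to 1.54) and did not pass the test (edgeR adjusted p = 0.0692). The call changed with the tool and the libraries. DESeq2 gave an adjusted p of 0.0311, and edgeR gave adjusted p = 0.0411 without AML1/ETO library 2, within a range of 0.0311 to 0.281 over all alternatives.

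Gas5 and Snhg8 were set side by side within each library, a pair chosen with their similar differences known, so their ratio is a description. The Gas5 to Snhg8 read ratio was 7.76, 9.97 and 5.59 in AML1/ETO libraries 1 to 3 and 12.5, 7.40, 7.74, 7.37 and 6.66 in controls 1 to 5. These ranges overlapped. The log2 ratio was 2.92 ± 0.42 (SD, n = 3) against 3.02 ± 0.36 (SD, n = 5), a difference of -0.10, which turned to 0.12 without AML1/ETO library 3 and to 0.05 without control 1. The Pearson correlation of their deviations from the group means was 0.81 over the 8 libraries, the highest of any pair among the 10 RNAs.

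The other 4 snoRNA hosts did not pass the test and their groups overlapped. Snhg1 (chr19:8723475-8726443, plus strand), with 8 annotated small RNAs, was at 98.7 ± 7.93 CPM (SD, n = 3) in AML1/ETO and 80.7 ± 13.4 CPM (SD, n = 5) in control libraries, a log2 difference of 0.29 (SE 0.18, edgeR adjusted p = 0.265). Snhg12 (chr4:132308623-132311024, plus strand) has 5 small RNA rows, with Snora16a entered under separate, overlapping IDs. Snhg12 differed by 0.28 on the log2 scale (SE 0.23, edgeR adjusted p = 0.444). Snhg5 (chr9:88521050-88522929, minus strand), with 2 small RNA rows, differed by 0.12 on the log2 scale (SE 0.20, edgeR adjusted p = 0.74). The 95% intervals of the log2 difference were -0.10 to 0.68 for Snhg1, -0.24 to 0.79 for Snhg12 and -0.32 to 0.56 for Snhg5. The Gas5 value of 0.76 lay within the interval of Snhg12 and outside those of the other 2. The interval of Gas5 itself, 0.39 to 1.12, overlapped each of them. Whether these hosts differed less than Gas5 was not tested. For Snhg5 the sign turned when library totals alone were used (-0.02).

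Snhg6 (chr1:9941959-9944118, minus strand), the host of Snord87, varied most within the AML1/ETO group among the snoRNA hosts. It was at 13.2, 31.5 and 50.2 CPM in AML1/ETO libraries 1 to 3 and at 25.2, 26.9, 32.9, 37.3 and 43.5 CPM in controls 1 to 5. The lowest and the highest of the 8 values were both AML1/ETO libraries. The log2 difference was -0.07 (SE 0.37, 95% interval -0.89 to 0.75, edgeR adjusted p = 0.93), and it was 0.29 without AML1/ETO library 1. The protein-coding Mcmdc2 overlaps 127 bp of Snhg6 exons on the other strand and had 110 reads in all libraries together.

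Mir142hg (chr11:87755577-87757270, plus strand) was the microRNA host that rose. Its level was 37.6, 25.7 and 27.5 CPM in AML1/ETO libraries 1 to 3 and 10.8, 10.2, 18.4, 19.5 and 8.15 CPM in controls 1 to 5. Every AML1/ETO library lay above every control, with controls 3 and 4 nearest to the AML1/ETO libraries. The means were 30.3 ± 6.43 CPM (SD, n = 3) and 13.4 ± 5.16 CPM (SD, n = 5), a log2 difference of 1.18 (SE 0.36, 95% interval 0.40 to 1.96, edgeR adjusted p = 0.0305). The call was lost when any of AML1/ETO library 1 (adjusted p = 0.103), AML1/ETO library 3 (0.0553), control 2 (0.0636) or control 5 (0.0519) was left out of the edgeR fit, when both first libraries were (0.13), and with scaling by library totals alone (0.0532). With the fits on replicates 1 to 3 in the closing section, it was lost in 8 of 19 alternatives. The direction held in all alternatives, with log2 differences of 0.92 to 1.39.

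The row of the opposite-strand microRNA gene Mir142b (chr11:87756841-87756955, minus strand) lies in the intron of Mir142hg. It held 202, 79 and 142 reads in AML1/ETO libraries 1 to 3 and 0, 48, 52, 31 and 22 reads in controls 1 to 5. Each AML1/ETO library had more reads than any control, and the log2 difference was 2.49 (SE 1.07) with an edgeR adjusted p of 0.111. The Mir142 row at the same place on the plus strand had 0 reads in all 8 libraries. No source used here states whether counting used strand. The Mir142 precursor and Mir142b therefore cannot be told apart.

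Mir155hg (chr16:84703167-84715245, plus strand) had the lowest level per length of the 10 RNAs in AML1/ETO cells. It was at 10.8, 12 and 2.09 CPM in AML1/ETO libraries 1 to 3, from 142, 192 and 32 reads, and at 15.4, 11.9, 15.1, 12.2 and 13.4 CPM in controls 1 to 5. AML1/ETO library 3 lay far below the other 7 libraries, and AML1/ETO library 2 lay within the controls. The log2 difference was -0.72 (SE 0.54, 95% interval -1.89 to 0.46, edgeR adjusted p = 0.378), and it was -0.27 without AML1/ETO library 3. Unlike the hosted RNA of Mir142hg, Mir155 is annotated within an exon of its host.

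**Figure D3:**
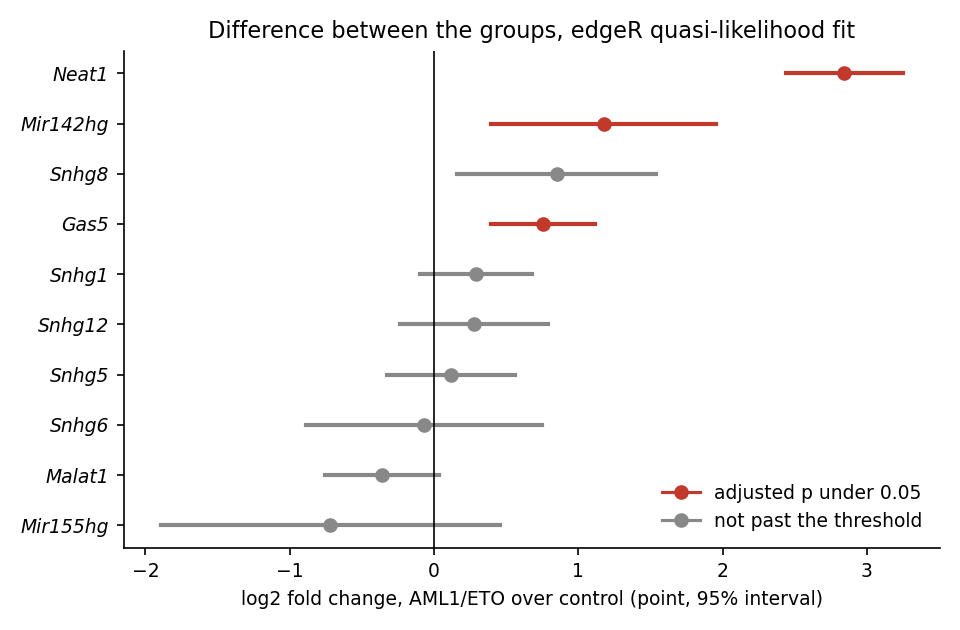
Log2 difference between AML1/ETO (n = 3) and control (n = 5) libraries for the 10 RNAs (horizontal axis), with 95% intervals from the edgeR fit in red where the adjusted p was under 0.05 and in grey otherwise. Neat1 stands at 2.84, Mir142hg at 1.18 and Gas5 at 0.76, and the Snhg6, Malat1 and Mir155hg values are negative with intervals that include 0.

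The annotation places 33 small RNA rows inside the 10 genes on the same strand. Of these, 31 overlap an annotated exon and 2 (Snord87 and Mir142) lie in an intron. The 1 row in Malat1 and the 3 in Neat1 are typed misc_RNA, neither snoRNA nor microRNA. None of the 33 had a read in any library. Of all 1507 snoRNA rows of the table, 182 had a read. Exons of all transcripts together cover the whole locus of Snhg1 (2969 bp), Snhg8 (853 bp) and Snhg12 (2402 bp). For Gas5 they cover 3760 of 4118 bp. Introns of some transcripts thus count as exon here. If counting used such exons, these host rows do not tell spliced RNA from RNA that keeps its introns. The table gave values for the host rows and none for the Snord47 and Snora24 RNAs printed above or for the mature microRNAs. No source used here states how reads over overlapping rows were assigned.

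Per kilobase of annotated exon, Malat1 stood highest in both groups, at 214.9 ± 43.1 RPKM (SD, n = 5) in control and 167.5 ± 19.1 RPKM (SD, n = 3) in AML1/ETO libraries. In controls Gas5 followed at 67.2 RPKM, then Mir142hg at 49.8, Snhg8 at 37.99, Snhg5 at 33.7, Snhg6 at 28.9, Snhg1 at 27.2, Snhg12 at 20.8, Mir155hg at 9.50 and Neat1 at 6.42 RPKM. In AML1/ETO cells the order by mean level was Malat1, Gas5 at 113.5 RPKM, Mir142hg at 112.6, Snhg8 at 68.5, Neat1 at 46.0, Snhg5 at 36.7, Snhg1 at 33.2, Snhg6 at 27.6, Snhg12 at 25.2 and Mir155hg at 5.78 RPKM. With 20771 bp as its length, Neat1 was thus in the last place of 10 in control cells and in place 5 in AML1/ETO cells. In controls the library ranges of neighbours in the order were apart for Malat1 and Gas5, for Snhg12 and Mir155hg, and for Mir155hg and Neat1. In AML1/ETO cells they were apart for Malat1 and Gas5, for Mir142hg and Snhg8, and for Snhg12 and Mir155hg, and all other neighbours overlapped. The annotated exons of Mir142hg total 269 bp and those of Neat1 20771 bp, and these levels depend on the gene models. The lengths of Gas5, Snhg1, Snhg8 and Snhg12 include introns of some of their transcripts. A shorter, spliced transcript as length would give them higher values. Both length rules use 20771 bp for Neat1, the isoform known to lack a poly(A) tail. Neat1 levels with its 3004 bp transcript as length were not computed. They would be higher, so the place of Neat1 could differ, also against Malat1. With the longest transcript as length, Gas5 was at 167.0 RPKM in AML1/ETO cells and overlapped Malat1, Mir142hg overlapped Snhg8, and Neat1 was in place 6.

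**Figure D4:**
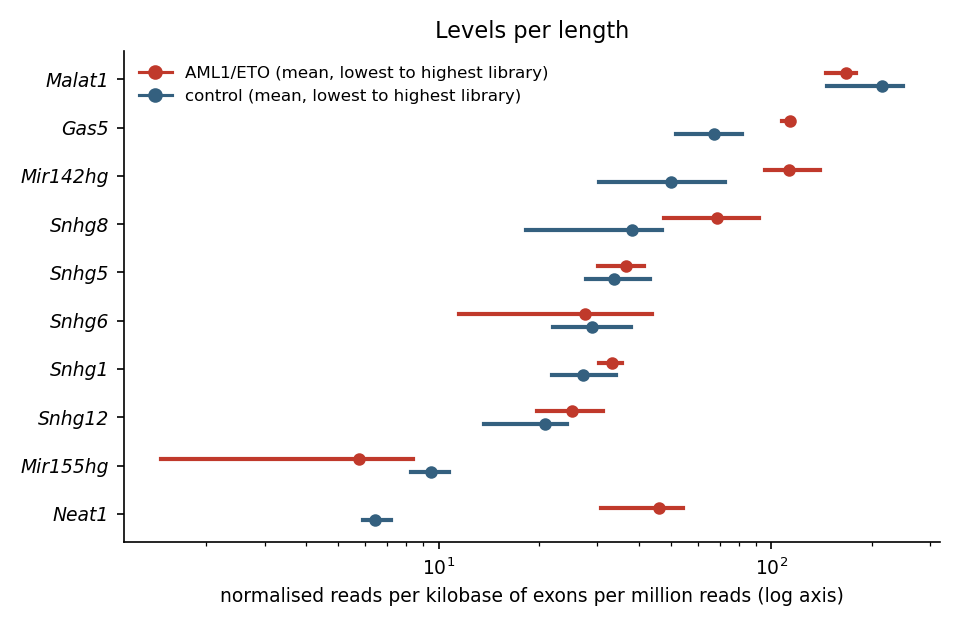
Level per kilobase of exon (RPKM, horizontal log axis) of the 10 RNAs in AML1/ETO (n = 3) and control (n = 5) libraries. Points are group means and lines run from the lowest to the highest library. With 20771 bp as its length, Neat1 is at 6.42 RPKM in control and 46.0 RPKM in AML1/ETO cells, and Malat1 is the highest in both.

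Protein-coding genes within 50 kb of the 10 genes were listed by a rule chosen after values were seen. There were 39, of which 28 were tested, 6 were called higher and 3 lower, against 11.6% and 14.2% of all tested genes. Near Neat1, Frmd8 (4223 bp away) was higher by 0.84 on the log2 scale (edgeR adjusted p = 0.00173) and Slc25a45 (32329 bp away) by 1.20 (adjusted p = 0.0022). Next to Snhg1, Slc3a2, the heavy chain of amino acid transporters, lies 105 bp away and was higher by 1.01 (adjusted p = 0.00096), while Snhg1 itself did not pass. Zbtb37 overlaps the span of Gas5 on the opposite strand with no shared exon bases and was higher by 0.97 (adjusted p = 0.0202). Nxf1 near Snhg1 (0.53, adjusted p = 0.0102) and Phactr4 near Snhg12 (0.54, adjusted p = 0.0444) were also higher. Syncrip near Snhg5 (-0.84, adjusted p = 0.00298), Sgk3 near Snhg6 (-1.16, adjusted p = 0.00349) and Rcc1 near Snhg12 (-0.93, adjusted p = 0.0247) were lower. Near Mir142hg, Tspoap1 differed by 1.16 (adjusted p = 0.0719) and Mpo, the neutrophil myeloperoxidase, by -1.28 (adjusted p = 0.0721), and neither passed.

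Genes whose level followed a member most closely over the 8 libraries, after the group means were removed, were found among 7576 genes with a mean of at least 20 CPM. The measure is Pearson's r of log2 CPM, given as a description with no p. Closest to Neat1 were Mms19 (r = 0.98) and Zfp692 (r = 0.98), among the closest to Malat1 was Kidins220 (r = 0.97), and closest to Gas5 were Srsf9 (r = 0.99) and Acp6 (r = 0.97). For Snhg8 they were Tbc1d16 (r = 0.99) and Cd274 (r = 0.98), and for Snhg6 Cdk5 (r = 0.99) and Wdr61 (r = 0.99). For Snhg1 they were Ybx3 (r = 0.97) and Mrpl20 (r = 0.96), for Snhg5 Rac2 (r = 0.96) and Junb (r = 0.96), and for Snhg12 Mob3c (r = 0.97) and Sec61a1 (r = 0.96). With 8 libraries and this many genes, values of this size are the highest of many. Among pairs of the 10 RNAs, r was highest for Gas5 and Snhg8 (0.81), Neat1 and Snhg6 (0.80) and Gas5 and Mir142hg (0.75). It was lowest for Malat1 and Snhg5 (-0.79). These are the extremes of all pairs over 8 libraries and were not tested.

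Other long noncoding RNAs of the same kinds were mostly not called. Of 17 listed genes, other snoRNA hosts plus Rmrp and Rpph1, 15 had a row and 9 were tested. None of the 9 was called by edgeR, DESeq2 or limma-voom, while 1 was higher and 1 lower at an unadjusted p under 0.05. Their median log2 difference was 0.32. Snhg15 (0.58, edgeR adjusted p = 0.126) had every AML1/ETO library above every control, and Snhg17 (0.56, adjusted p = 0.15) and Zfas1 (0.32, adjusted p = 0.273) had overlapping groups. Snhg10 had 0 reads in the AML1/ETO group and a mean of 0.725 CPM in controls (edgeR adjusted p = 0.0984), and it was called lower without control 1. Of 9 other nuclear and regulatory RNAs tested, against 11.6% higher over all tested genes, 1 was called higher. This was Firre, a nuclear RNA that holds chromosomes near each other, at 269.6 ± 39.3 CPM (SD, n = 3) against 114 ± 13.7 CPM (SD, n = 5), a log2 difference of 1.24 (edgeR adjusted p = 0.000191). Firre is X-linked and the groups differ in sex markers. Tug1 differed by 0.42 (edgeR adjusted p = 0.0895) and the Norad row, 2900097C17Rik, by -0.19 (adjusted p = 0.367). Of 4 other microRNA hosts tested none was called or had an unadjusted p under 0.05 by edgeR, and DESeq2 called none. Limma-voom called 1 lower, as did edgeR without AML1/ETO library 1. Mir17hg, the host of the miR-17 to miR-92 cluster, differed by -0.50 (edgeR adjusted p = 0.381).

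Most proteins known to work with these RNAs did not pass the test. Against 14.2% lower and 11.6% higher over all tested genes, 3 of 16 paraspeckle proteins were lower and 0 higher. They were Nono (316.1 ± 79.4 against 477.9 ± 26.3 CPM, log2 difference -0.60, edgeR adjusted p = 0.0233) and Pspc1 (-0.49, adjusted p = 0.0472), which bind Neat1, and Nudt21 (-0.70, adjusted p = 0.0133), which acts in Neat1 3′ end choice. Sfpq, another Neat1-binding core protein, differed by 0.26 (adjusted p = 0.406). At unadjusted p under 0.05, 0 paraspeckle proteins were higher, and DESeq2 and limma-voom called 0 higher. The lower count was 1 without control 2, 3 or 5 and 5 with library totals alone. In the fits on replicates 1 to 3, with and without a block, it was 0. Several sums of cell type markers given above also differed between the groups, and their part in these values was not tested.

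Among 17 nuclear speckle proteins, 4 were higher and 2 were lower, against 11.6% and 14.2% of all tested genes. The SR splicing factors Srsf5 (0.98, edgeR adjusted p = 0.000259), Srsf6 (0.66, adjusted p = 0.00439) and Srsf7 (0.62, adjusted p = 0.0066) rose, as did Acin1 (0.39, adjusted p = 0.0359). Prpf8, the core protein of the spliceosome, fell by 0.87 on the log2 scale (adjusted p = 0.00196), and Rnps1 fell by 0.46 (adjusted p = 0.0275). The lower count was 1 without AML1/ETO library 3 or without control 2, 3 or 4. DESeq2 called 7 higher.

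Of the 15 protein components and assembly factors of snoRNPs, 4 were lower and 0 higher. Over all tested genes 14.2% were lower and 11.6% higher. The median log2 difference of the 15 was -0.53. The pseudouridine synthase Dkc1 was at 63.4 ± 18.5 CPM against 132.3 ± 26.7 CPM (log2 difference -1.06, edgeR adjusted p = 0.00645). Its partner Nhp2 (-0.90, adjusted p = 0.0191), the assembly factor Nolc1 (-0.58, adjusted p = 0.0244) and the box C/D methyltransferase Fbl (-0.64, adjusted p = 0.0382) were lower too. In the same libraries the host Gas5 was higher, and a link between these values was not tested. At unadjusted p under 0.05, 0 were higher and 6 lower, and DESeq2 called 0 higher and 4 lower. The lower count was 2 without AML1/ETO library 3 and without control 2, 3 or 5, and 1 gene was called higher without AML1/ETO library 1.

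Nonsense-mediated decay degrades spliced Gas5 and other host exons. The median log2 difference of 15 genes of this pathway was -0.38. Against 14.2% lower and 11.6% higher over all tested genes, 4 were lower and 0 higher. These were Smg8 (-1.31, edgeR adjusted p = 0.00835), Rbm8a (-0.72, adjusted p = 0.013), Smg5 (-0.70, adjusted p = 0.0187) and Eif4a3 (-0.53, adjusted p = 0.0267), of which Smg8 acts on the Smg1 kinase and Rbm8a and Eif4a3 belong to the exon junction complex. The other 11 were not called by edgeR. At an unadjusted p under 0.05, 8 of the 15 were lower and 0 higher. DESeq2 called 5 lower and 0 higher. The lower count was 8 with library totals alone and 3 without AML1/ETO library 2 or 3 or without control 2, 3, 4 or 5. Whether decay had a part in the host levels was not tested.

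Protein-coding hosts of snoRNAs and genes of the translation machinery, many of which share the 5′ pyrimidine tract, went in both directions. Of 32 tested, 5 were higher and 3 were lower, at a median of -0.08, against 11.6% higher and 14.2% lower over all tested genes. Eif4a2 (0.92, edgeR adjusted p = 0.00123) and Eif4a1 (0.56, adjusted p = 0.013), translation initiation helicases that host snoRNAs, were higher. Ncl (-0.57, adjusted p = 0.00537), the nucleolar protein nucleolin, and Npm1 (-0.98, adjusted p = 0.00869), nucleophosmin, were lower. The counts were 2 higher and 8 lower with library totals alone, and 2 were higher without AML1/ETO library 3.

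Of 14 genes of microRNA biogenesis, 3 were lower and 0 higher, against 14.2% and 11.6% of all tested genes. Ran, the GTPase of the Exportin-5 pathway, fell by 1.45 on the log2 scale (edgeR adjusted p = 0.00036). Dicer1 changed by -1.12 (adjusted p = 0.000891) and Ago3 by -0.86 (adjusted p = 0.0103). Ago2 differed by -1.02 with a wide spread (266.6 ± 217.3 against 538.5 ± 96.2 CPM, adjusted p = 0.0789) and Drosha by 0.43 (adjusted p = 0.102). At unadjusted p under 0.05, 1 was higher and 4 lower, and DESeq2 called 1 higher and 4 lower. Without AML1/ETO library 1, 5 were lower.

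Published targets of miR-155 did not share a direction. Of 14 tested, 4 were higher and 2 lower, against 11.6% and 14.2% of all tested genes. Fos, an AP-1 factor, was higher by 4.22 on the log2 scale (edgeR adjusted p = 2.6e-06), and Cebpb, a myeloid transcription factor, by 2.37 (adjusted p = 1.73e-05). Spi1, which encodes PU.1, fell by 2.60 (adjusted p = 2.1e-06), and Csf1r, the macrophage growth factor receptor and also a macrophage marker, fell by 5.08 (adjusted p = 0.0015). Without AML1/ETO library 3, 2 were called higher.

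**Figure D5:**
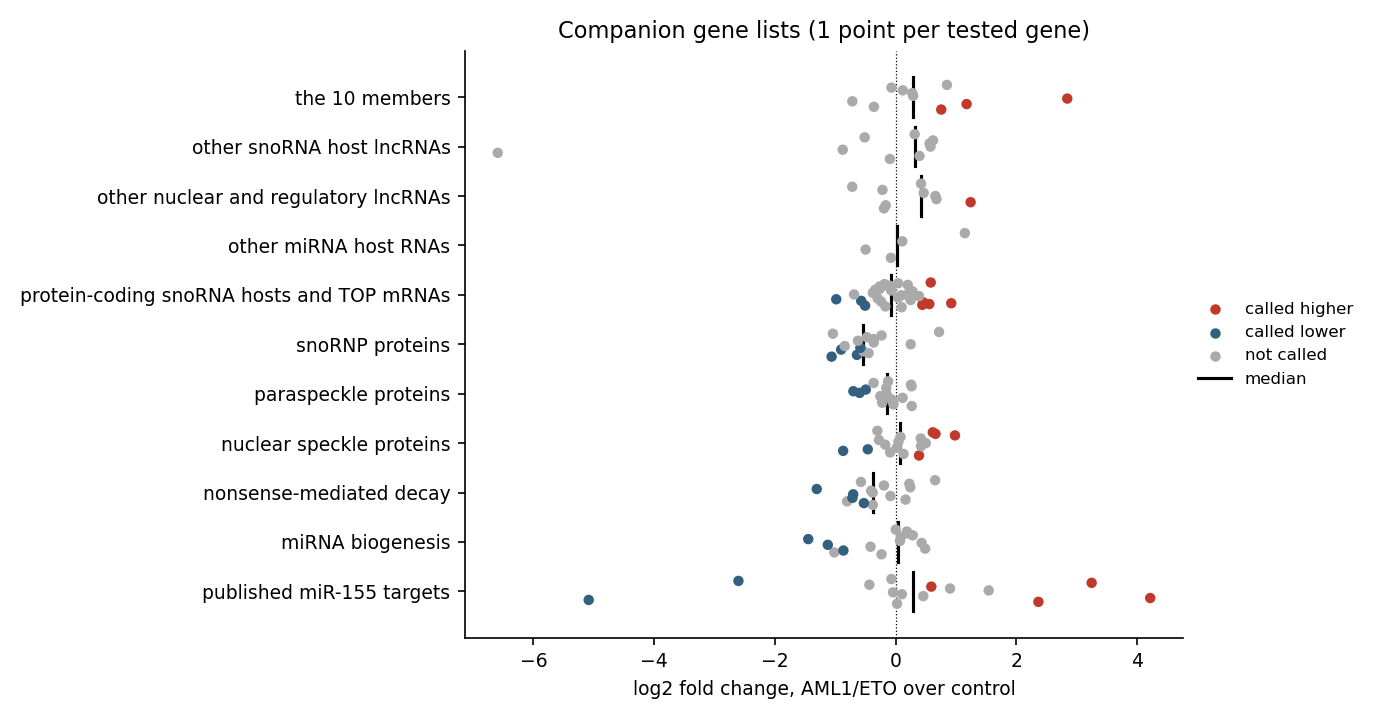
Log2 difference between AML1/ETO and control libraries (horizontal axis) for the 10 RNAs and 10 lists of related genes, with 1 point per tested gene, colours for called higher, called lower and not called, and black bars for medians. The medians run from -0.53 for snoRNP proteins to 0.42 for other nuclear RNAs.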

How the data were processed

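Raw read counts per gene were deposited by the authors for 8 libraries. Per the submitters' processing notes, HISAT2 2.0.5, featureCounts 1.5.0-p3 and the mm10 build were used. No source used here states the annotation release, strand setting or handling of reads over overlapping rows. All counts were fitted together (edgeR 4.0.16 in R 4.3.3, filterByExpr, TMM scaling, quasi-likelihood test, two-sided, Benjamini-Hochberg over 15009 tested genes, threshold 0.05), without a block. The biological coefficient of variation was 72.6%. CPM are TMM-scaled, and RPKM use the union of GENCODE M21 exons on GRCm38, which matched 54409 gene IDs and missed 123. The Neat1 to Malat1 ratio was tested by exact permutation over 56 arrangements. DESeq2 1.42.0, limma-voom 3.58.1, other scalings and filters and left-out libraries were alternatives. The scripts' test was checked on simulated data. The members and lists were chosen with earlier results of these data known. Named genes were all 10 members, up to 4 per list by smallest p, overlapping genes and the 2 closest in pattern to each member with a mean of at least 20 CPM. Acin1, Rnps1, Sfpq and Drosha, and the neighbouring genes, were named after their values were seen. A gene that the rule on likeness names for Malat1 is not reported here.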

Additional observations from a re-analysis of the deposited data

Results flagged for a closer look

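The Gas5 to Snhg8 read ratio of control 1 was 12.5, against 6.66 to 7.74 in the other 4 controls. The gap to its nearest neighbour on the log2 scale took up 0.759 of the controls' range, above the critical value of 0.71 for 5 samples. Chance flags about 1 in 20 single checks of this kind, and 12 were made, so a flag among them can arise by chance. Control 1 also had the lowest Gas5 and Snhg8 levels of the controls, at 194.1 and 15.6 CPM.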

How the results depend on the processing

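Over 19 alternatives, Neat1 (log2 difference 2.70 to 3.06) and Gas5 (0.61 to 0.87) kept their direction and their call, Snhg1, Snhg12 and Mir155hg their direction and lack of a call, and Mir142hg its direction. Scaling by library totals alone shifted the median of all genes by -0.15 on the log2 scale and limma-voom by -0.12. With library totals alone 34.2% of called genes were higher, against 44.9%, 1 member (Malat1) was called lower, the related lists had 9 higher and 35 lower calls against 14 and 21, and Snhg5 turned to -0.023. The Snhg6 difference ran from -0.58 to 0.29 without single libraries, and its sign turned with limma-voom (0.031), without both first libraries (0.21), without AML1/ETO library 1 (0.29), and without control 4 (0.02) or 5 (0.08). The causes were not tested. Leaving out single libraries gave 1385 to 1752 genes higher, 1537 to 2287 lower, 2 to 4 members higher, 8 to 17 list genes higher (8 without AML1/ETO library 3) and 14 to 24 lower, and a Neat1 to Malat1 log2 difference of 2.90 to 3.46. The Gas5 to Snhg8 difference ran from -0.30 to 0.12 (0.12 without AML1/ETO library 3, 0.05 without control 1).

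Replicate numbers are shared by the groups, and the labels state no pairing. Deviations of same-numbered libraries had correlations of 0.04, -0.03 and 0.03, which cannot show whether these libraries shared a batch. With a replicate block on replicates 1 to 3, 1043 genes were higher and 939 lower against 1734 and 2128 over all 8 libraries, 6 list genes were higher and 9 lower (0 paraspeckle, 1 snoRNP and 1 decay gene lower), Mir142hg lost its call (edgeR adjusted p = 0.0917), Snhg6 was 0.012, and the Neat1 to Malat1 difference was 3.13, where 3 pairs cannot give p below 0.25. The same 6 libraries without the block, chosen after seeing the data, gave 1108 genes lower, 8 list genes higher and 10 lower (0 paraspeckle, 1 snoRNP and 2 decay genes lower), 0.19 for Snhg6 and adjusted p = 0.0601 for Mir142hg. With the longest transcript as the length, control levels were 98.9 RPKM for Gas5, 47.8 for Snhg5, 40.6 for Snhg6 and 32.5 for Snhg12.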
